A study of Mus musculus with 15 samples.

Results

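The AP-1 subunits were followed in Ba/F3-beta cells, a mouse pro-B cell line that needs interleukin-3 (IL-3) to grow. The 8 genes Fos, Fosb, Fosl1, Fosl2, Jun, Junb, Jund and Atf3 were taken by name, with every probe set that the platform annotation assigns to them. That gave 16 of 36701 non-control probe sets, and 8 of 15964 named genes. The 5 conditions were Stat5 siRNA with IL-3 for 30 min, Stat5 siRNA with IL-3 for 2 h, control siRNA with IL-3 for 30 min, control siRNA with IL-3 for 2 h, and control siRNA without IL-3. The Stat5 siRNA was directed at both Stat5A and Stat5B, and the control was the scrambled siRNA scramble I. All cells were transfected, and unstimulated cells with the Stat5 siRNA were not analysed here, so the unstimulated level refers to control siRNA cells alone. Each condition had 1 array on each of the 3 designs U74A, U74B and U74C, which measure different probe sets and are not replicates of each other, so no difference below has a replicate check. Signals come from whole cultures, in which fewer cells with a transcript and less transcript per cell cannot be told apart.

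AP-1 is a family of dimeric transcription factors whose subunits pair through a leucine zipper and touch DNA with a basic region. Fos proteins dimerise with Jun proteins and do not pair among themselves, whereas Jun proteins can also form Jun-Jun dimers. Growth factors and cytokines act through MAP kinases on the factors that transcribe Fos and Jun genes, which makes several of them immediate early genes, transcribed without new protein synthesis and then switched off. In blood cells that depend on IL-3, the receptor also activates the STAT5 proteins, and the study asked which IL-3-induced genes need them.

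The promoters of the subunits whose signal was highest at 30 min of IL-3 in both siRNA groups are shown here, since these genes moved together. The sequences are from RefSeq (GRCm38.p6), read 5′ to 3′ on the strand of the gene, and cover the 250 bases before the annotated start. Capitals mark matches to the searched motifs. The searched motifs, on both strands, were the AP-1 site TRE (TGANTCA), the cAMP response element CRE (TGACGTCA), its core TGACG, which the full CRE also contains, a CRE variant (TGACATCA), the STAT site GAS (TTCNNNGAA), the CArG box of serum response factor, and the TATA box (TATAAA).
Fos, chr12:85473640-85473889, plus strand: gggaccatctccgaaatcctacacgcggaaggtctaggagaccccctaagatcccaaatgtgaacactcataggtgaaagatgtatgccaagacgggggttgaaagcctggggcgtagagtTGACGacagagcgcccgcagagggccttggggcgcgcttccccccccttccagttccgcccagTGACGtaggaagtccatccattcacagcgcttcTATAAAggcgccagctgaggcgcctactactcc
Jun, chr4:95052223-95052472, minus strand: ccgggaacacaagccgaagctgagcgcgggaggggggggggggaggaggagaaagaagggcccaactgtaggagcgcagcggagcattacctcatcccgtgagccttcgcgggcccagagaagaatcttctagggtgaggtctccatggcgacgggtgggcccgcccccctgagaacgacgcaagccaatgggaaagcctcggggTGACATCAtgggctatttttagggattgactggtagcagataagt
Junb, chr8:84978749-84978998, minus strand: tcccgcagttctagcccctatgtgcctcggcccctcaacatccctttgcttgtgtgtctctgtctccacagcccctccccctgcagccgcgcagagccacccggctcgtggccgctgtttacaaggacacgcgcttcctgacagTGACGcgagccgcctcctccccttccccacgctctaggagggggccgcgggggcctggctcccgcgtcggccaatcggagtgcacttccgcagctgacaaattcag
Fosl2, chr5:32136222-32136471, plus strand: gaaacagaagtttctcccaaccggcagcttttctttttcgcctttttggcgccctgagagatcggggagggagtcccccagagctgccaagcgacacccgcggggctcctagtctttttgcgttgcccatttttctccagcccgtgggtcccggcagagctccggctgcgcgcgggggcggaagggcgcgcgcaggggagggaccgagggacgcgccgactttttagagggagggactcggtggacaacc
For Fosb only the 30 bases around its match are given.
Fosb, chr7:19310088-19310117, minus strand: tggagttgcgggTGACGcaagcgcgggggc

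The table held a promoter for 7 of the 8 subunits, and Fosl1 was not among them. The CRE core was found in 4 of these 7, Fos, Fosb, Junb and Atf3, against 17.8% of 32851 promoters of the same length. In Fos it lay at -129 to -125 and at -66 to -62, counted back from the annotated start, in Fosb at -60 to -56 and in Junb at -106 to -102. In Atf3 it was on the other strand at -7 to -3. Jun had no CRE core but carried the CRE variant at -45 to -38, which 2.93% of all promoters hold. Only Fos of the 7 had the TATA box in its window (-33 to -28), a motif of 12.4% of all promoters. None of the 7 windows held the TRE, the full CRE, the GAS or the CArG box, which were found in 6.75%, 1.55%, 7.02% and 1.47% of all promoters. These are matches of letters in a short window and say nothing of binding, and sites farther from the start were not searched.

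**Figure D1:**
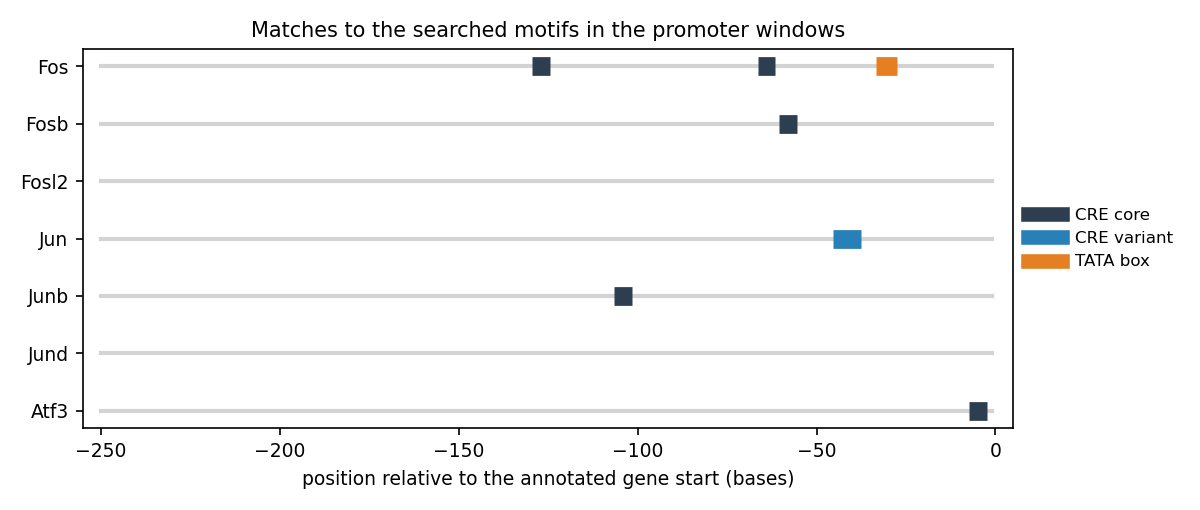
Each row is the promoter of 1 AP-1 subunit over the 250 bases before its annotated start (x axis, bases), with coloured bars for motif matches on either strand. Matches to the CRE core lie in Fos, Fosb, Junb and Atf3, the CRE variant lies in Jun, and Fosl2 and Jund have none.

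Of the 36701 probe sets, 14553 reached the floor, the lowest signal taken as measured (119.9). Pearson's r between arrays of 1 design lay between 0.940 and 0.987 on log2 signals raised to the floor. It was taken over all non-control probe sets of the design, so those under the floor on every array entered with equal values. The siRNA targets, whose transcripts the siRNA should remove, were lower. The brighter Stat5a probe set was left at 50.6% of control at 30 min and 53.6% at 2 h, and the Stat5b probe set on U74B at 33.2% and 71.3%. On this Stat5b probe set the control siRNA signal itself was 499 at 30 min and 177 at 2 h. In Stat5 siRNA cells it was 166 and 126, the last close to the floor, so the 2 percentages do not compare the siRNA between times. Both Stat5a probe sets are of kinds treated here, by their suffix, as able to cross-hybridise. Of 7 markers of IL-3-dependent blood cells 5 reached the floor, led by the receptor chain Csf2rb at 5446 to 8661, while of 14 pro-B and B lineage markers on the arrays only Cd79b did, at 92.9 to 162. Rag1, Dntt and Vpreb1 were under the floor on every array, so the pro-B label rests here on the name of the line. Of the other marker lists, 3 of 16 myeloid and mast, 1 of 9 T and NK and 3 of 10 fibroblast and epithelial markers reached the floor. Erythroid and megakaryocyte markers reached it in 5 of 7 cases, and their summed signal was 6547 at 30 min and 5989 at 2 h in Stat5 siRNA cells, against 4539 and 3869 in control siRNA cells. The summed signal of the IL-3-dependent blood markers was 8212 and 11662 in Stat5 siRNA cells, against 12473 and 12692 in control siRNA cells. The part of either difference in the siRNA ratios below was not tested. Such sums follow their brightest probe sets most. At 30 min Csf2rb had 5446 in Stat5 siRNA cells against 8361 in control siRNA cells. Itga2b had 4170 against 3050 and Hba-a1 1103 against 471, while Epor, of the same erythroid and megakaryocyte list, was lower (147 against 161).

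Of the 16 AP-1 probe sets, 9 reached the floor on at least 1 array, and they covered 7 of the 8 genes. The 7 others, at 1.68 to 51.1 on all their arrays, were the 3 probe sets of Atf3, and 1 further probe set each for Fos, Jun, Jund and Fosl2. The text below rests on the 9, of which the 2 for Junb (_i_at and _r_at) are of the kinds treated here as cross-hybridising. Levels are compared within a probe set only, because brightness differs between probes.

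IL-3 for 30 min raised Fos, Junb and Fosl2 past 2-fold in control siRNA cells, 3 of the 8 subunits, and lowered none. Across all genes measured in this comparison, 0.711% of 8155 were 2-fold or more higher and 0.343% lower. Fosb and Jun also had their highest signals at 30 min, but these were less than 2 times the floor. With the unstimulated signals set to the floor, the bounds on their folds therefore stayed under 2. With the floor halved both passed 2-fold (log2 ratios of at least 1.90 for Jun and 1.32 for Fosb). Junb has no value once cross-hybridising probe sets are left out. Jund was bright in every condition, while Fosl1 and Atf3 were under the floor on both arrays.

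Fos encodes the founding Fos protein, c-Fos, whose transcript is known to be short-lived. Its U74A probe set had a signal of 1542 at 30 min and 77.6 at 2 h in Stat5 siRNA cells, against 9.30 without IL-3, 1944 at 30 min and 44.3 at 2 h in control siRNA cells. Both 30 min arrays were far above the floor and the 3 others were below it. The 30 min signal was at least 16.2-fold above the unstimulated one in control siRNA cells, a bound set by the floor and not by the measured 9.30.

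Fosb encodes FosB, a close relative of c-Fos. Its signal was 134 at 30 min and 71.4 at 2 h in Stat5 siRNA cells, against 47.2 without IL-3, 150 at 30 min and 57.7 at 2 h in control siRNA cells. As for Fos, only the 2 arrays at 30 min reached the floor, here by a narrow margin, so that the signal with IL-3 was at least 1.25-fold higher, short of the 2-fold rule.

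Fosl1 and Fosl2 encode the Fos-related antigens Fra-1 and Fra-2, which lack the strong transactivation domain of c-Fos. Fosl1 had signals of 84.0 at 30 min and 156 at 2 h in Stat5 siRNA cells, against 4.34 without IL-3, 71.3 at 30 min and 149 at 2 h in control siRNA cells. It was thus the 1 subunit whose dim signal was highest at 2 h in both siRNA groups, with only the 2 h arrays over the floor and at least 1.24-fold above the unstimulated cells. With the floor halved that bound was past 2-fold (log2 ratio at least 1.32).

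Fosl2 was measured on U74B by 2 probe sets that were over the floor on all 5 arrays, so its folds are not bounds. The brighter one had signals of 1316 at 30 min and 892 at 2 h in Stat5 siRNA cells, against 417 without IL-3, 1708 at 30 min and 933 at 2 h in control siRNA cells. The other had 718 at 30 min and 571 at 2 h in Stat5 siRNA cells, against 233 without IL-3, 1039 at 30 min and 525 at 2 h in control siRNA cells. Both were lowest without IL-3 and highest at 30 min, in each siRNA group. Their folds over no IL-3 in control siRNA cells were 4.10 and 4.46 at 30 min, and 2.24 and 2.26 at 2 h. At 30 min they had ranks 4 and 3 from the top among 4297 probe sets over the floor on both U74B arrays. Probe sets that rose from under the floor have no rank there, such as that of Cd69 (at least 6.52-fold).

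Jun encodes c-Jun, the main partner of c-Fos. Its U74A probe set had signals of 271 at 30 min and 13.1 at 2 h in Stat5 siRNA cells, against 18.6 without IL-3, 224 at 30 min and 3.53 at 2 h in control siRNA cells. Only the 2 arrays at 30 min reached the floor, and the signal with IL-3 was at least 1.87-fold higher in control siRNA cells.

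Junb encodes JunB, a Jun protein that can oppose c-Jun on some promoters. Its _i_at probe set had signals of 772 at 30 min and 277 at 2 h in Stat5 siRNA cells, against 37.8 without IL-3, 813 at 30 min and 261 at 2 h in control siRNA cells. The _r_at probe set had 767 at 30 min and 446 at 2 h in Stat5 siRNA cells, against 90.4 without IL-3, 1034 at 30 min and 276 at 2 h in control siRNA cells. On both, the 4 arrays with IL-3 were over the floor and the unstimulated array was under it. Junb was at least 7.65-fold higher at 30 min and at least 2.24-fold higher at 2 h than without IL-3 in control siRNA cells, as the median of both.

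Jund encodes JunD, which many resting cells express steadily. Its signal was 4316 at 30 min and 2946 at 2 h in Stat5 siRNA cells, against 2939 without IL-3, 3312 at 30 min and 4138 at 2 h in control siRNA cells. All 5 arrays were far over the floor, and the IL-3 folds in control siRNA cells were 1.13 at 30 min and 1.41 at 2 h, both under the 2-fold rule. Its 2 h signal was 68.3% of the 30 min signal in Stat5 siRNA cells and 125% in control siRNA cells.

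Atf3 encodes a stress-induced factor of the ATF/CREB family that pairs with Jun proteins. Its 3 probe sets had signals between 1.85 and 51.1 over all 5 conditions, all under the floor, and all 3 are of the cross-hybridising kind. No fold is given for it.

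**Figure D2:**
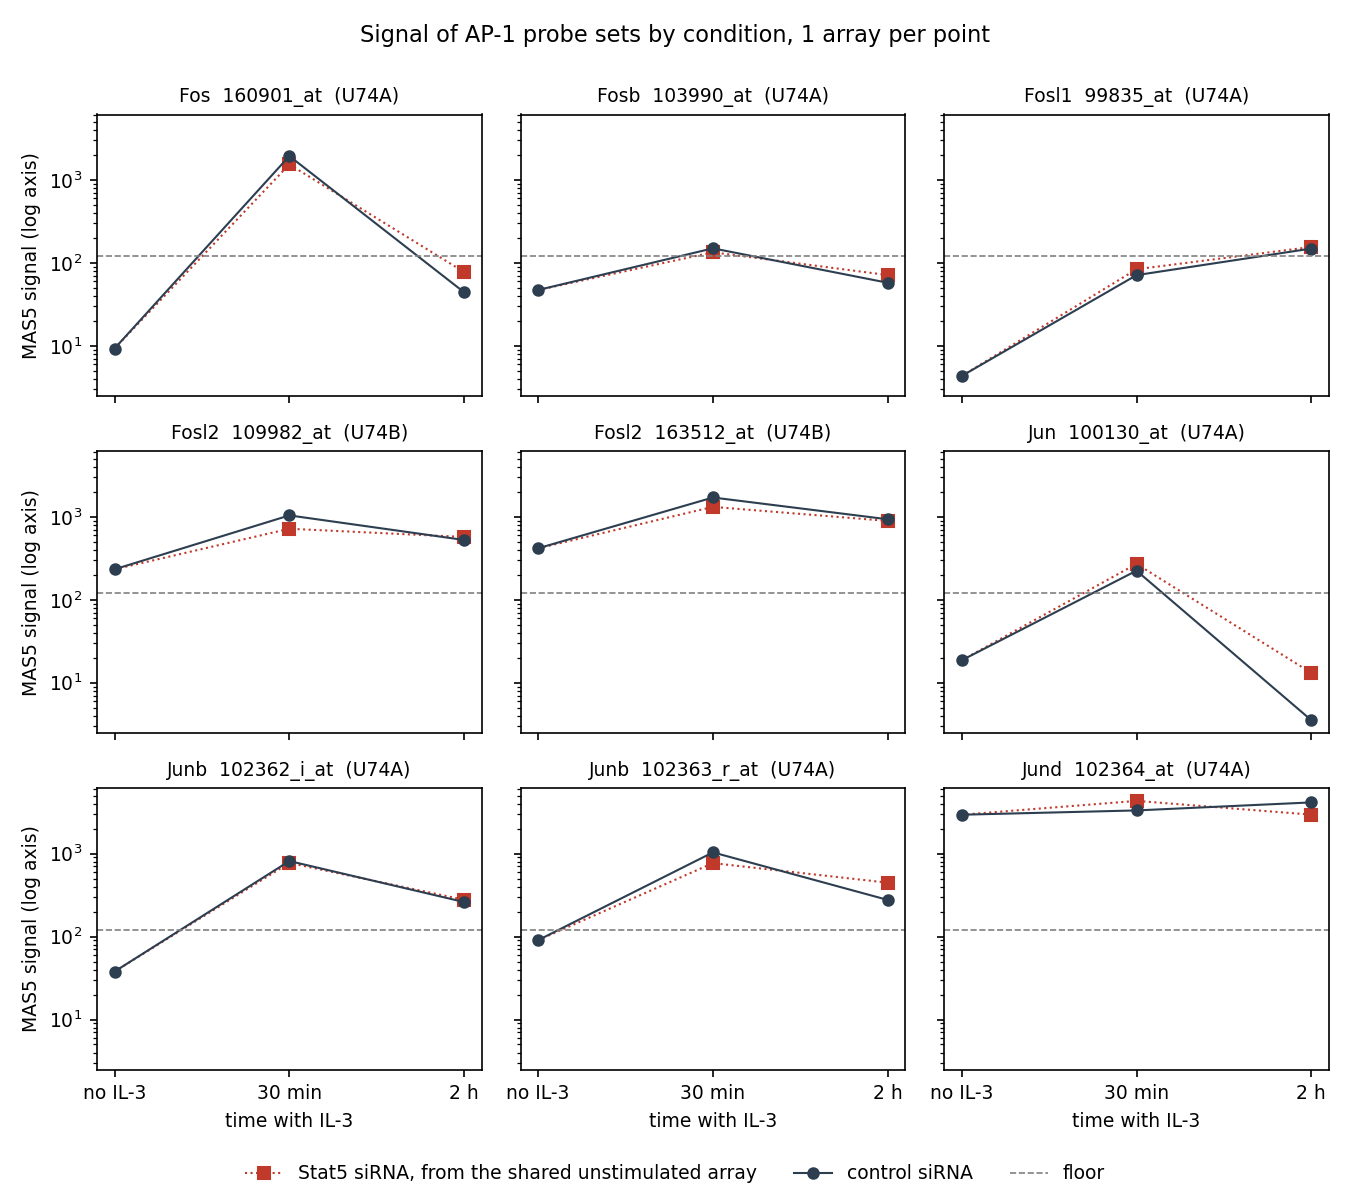
MAS5 signal (y axis, log scale) of the 9 AP-1 probe sets over the floor, by time with IL-3 (x axis, not to scale), with 1 array per point. Red squares are Stat5 siRNA cells, dark circles control siRNA cells, the dashed line is the floor, and both lines start at the only unstimulated array, of control siRNA cells. Fos, Fosb, Jun, Junb and Fosl2 peak at 30 min in both siRNA groups, Fosl1 is highest at 2 h, and Jund stays between 2939 and 4316.

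By 2 h Fos, Jun and Junb had fallen back. In Stat5 siRNA cells the 2 h signal was 2-fold or more below the 30 min signal for Fos, Jun and Junb, 3 of 8 subunits, against 1.19% of 8247 measured genes lower and 1.64% higher. In control siRNA cells it was so for Fos and Junb, 2 of 8, against 1.65% of 8234 measured genes lower and 1.89% higher. Fos was at least 12.9-fold lower at 2 h than at 30 min in Stat5 siRNA cells, and at least 16.2-fold lower in control siRNA cells. Jun was at least 2.26-fold lower in Stat5 siRNA cells, a call lost with the floor doubled (log2 ratio -0.17), and at least 1.87-fold lower in control siRNA cells. These bounds for Fos and Jun follow the height of the 30 min signal, since both 2 h arrays were under the floor, so they do not compare the 2 siRNA groups.

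Junb fell less far than Fos, while the bounds for Jun do not place it against Junb. The 2 h signal of Junb on the _i_at probe set was 35.9% of the 30 min signal in Stat5 siRNA cells and 32.0% in control siRNA cells. On the _r_at probe set it was 58.1% and 26.7%. The probe sets gave close values in control siRNA cells and parted in Stat5 siRNA cells, where only the first was past 2-fold. Median scaling ended the Junb call in Stat5 siRNA cells (log2 ratio -0.93).

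Fosl2 stayed above its unstimulated level. In Stat5 siRNA cells its 2 h signal was 67.8% of the 30 min signal on the brighter probe set and 79.6% on the other, against 54.6% and 50.5% in control siRNA cells. At 2 h of IL-3, Fosl2 and Junb were the 2 of 8 subunits 2-fold or more above the unstimulated level in control siRNA cells, a call made for 2.45% of 8294 measured genes upward and 1.63% downward. Fosl2 lost it (log2 ratio 0.99) when arrays were scaled to a common median, which moved the median log2 ratio of all measured U74B probe sets at 2 h to -0.19, against -0.024. Junb lost it (0.16) with a doubled floor.

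Stat5 siRNA moved no AP-1 subunit past 2-fold at either time. At 30 min 6 of the 8 subunits were measured, and their log2 ratios of Stat5 siRNA over control siRNA lay between -0.46 and 0.38. Of 8124 genes measured there, 0.308% were 2-fold or more higher and 0.382% lower, shares so low that the absence of a call among 6 genes is not a result about the subunits. At 2 h 4 of the 8 were measured, between -0.49 and 0.39, against 0.504% of 8132 genes higher and 0.43% lower.

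For scale, the spread of a single log2 ratio was read from pairs of probe sets of 1 gene on 1 design, which share the RNA and so leave out differences between cultures. This SD was 0.22 on U74A (192 pairs) and 0.19 on U74B (499 pairs) for the siRNA comparison at 30 min, and 0.22 (187 pairs) and 0.24 (481 pairs) at 2 h. It covers only the spread between probe sets. Those that can cross-hybridise, such as both for Junb, were left out of the pairs.

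At 30 min Fos was 79.3% of control in Stat5 siRNA cells (log2 ratio -0.33), Fosb 89.6% (-0.16) and Jun 121% (0.27). The 2 Fosl2 probe sets were at 69.0% and 77.1% of control, which gave a gene value of -0.46. The Junb probe sets were at 94.9% and 74.2%, a gene value of -0.25, and Jund was at 130% (0.38). Fos, Fosb, Fosl2 and Junb were thus below control and Jun and Jund above it. The Fosl2 gene value was more than 2 of these SDs from 0, and the other gene values less. Of the Fosl2 probe sets only the dimmer (-0.53) was past 2 SDs. The brighter Fosl2 probe set (-0.38) and the _r_at probe set of Junb (-0.43) were just short of it. Since IL-3 and siRNA ratios at 1 time share the control IL-3 array, a high or low signal on that array enters both.

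At 2 h Fosl2 was 95.6% of control on the brighter and 109% on the other probe set, Fosl1 was at 105%, and Jund was at 71.2% (log2 ratio -0.49). Junb was at 106% of control on the _i_at and 161% on the _r_at probe set. Jund was a little more than 2 SDs below 0. The 2 Junb probe sets differed, at log2 ratios of 0.09 and 0.69. The SD is that of a single ratio and not of such a difference, and it leaves out probe sets of their kind. Fos, Fosb and Jun were under the floor on both 2 h arrays and have no ratio.

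**Figure D3:**
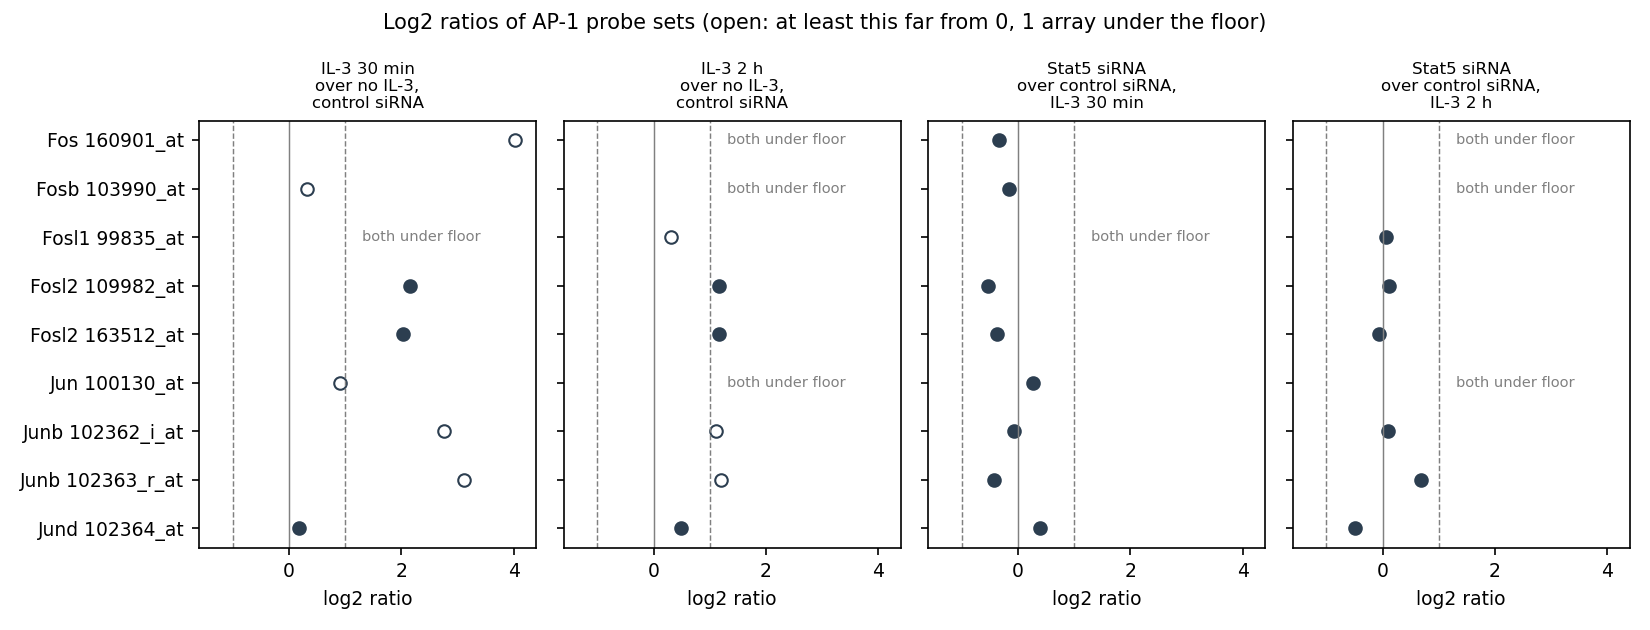
Log2 ratios (x axis) of the 9 AP-1 probe sets (rows) in 4 comparisons (panels), with dashed lines at 2-fold. Filled points have both arrays over the floor, and open points have 1 array under it and mark the least distance from 0. Fos, Junb and Fosl2 pass 2-fold with IL-3 at 30 min, Fosl2 and Junb at 2 h, and no point passes it with Stat5 siRNA.

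**Figure D4:**
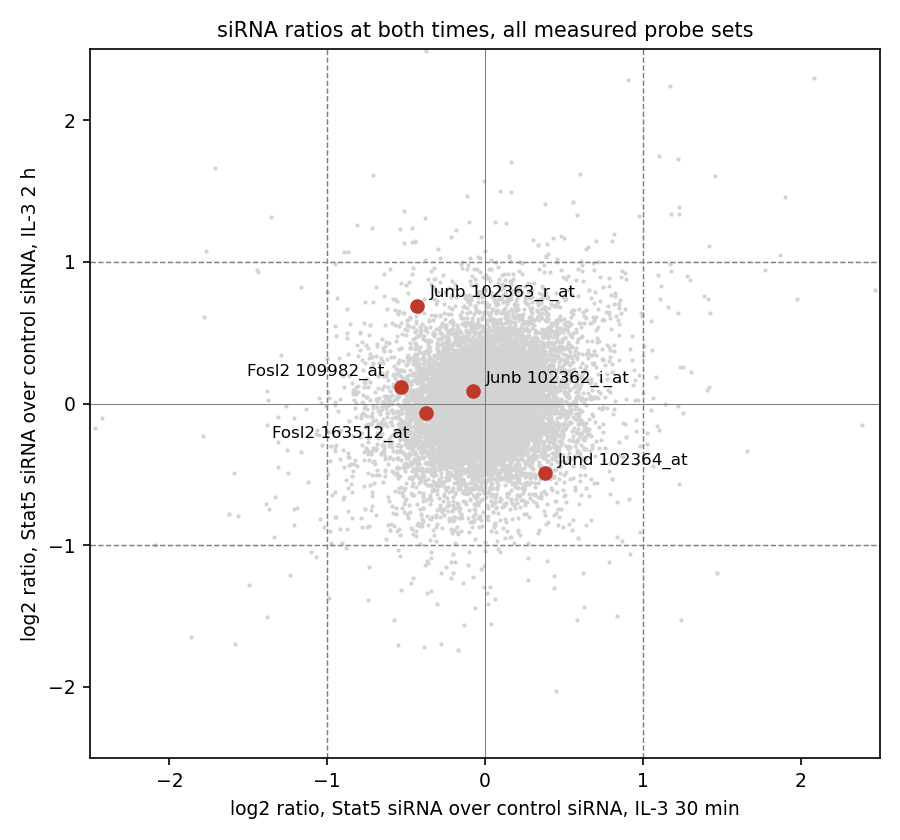
Log2 ratio of Stat5 siRNA over control siRNA at 30 min (x axis) and 2 h (y axis) for the 12274 probe sets measured at both times (grey, 3 outside the axes) and the 5 AP-1 probe sets among them (red), with dashed lines at 2-fold. The Fosl2 points lie left of 0 at 30 min and near 0 at 2 h, and Jund and the _r_at probe set of Junb have opposite signs at the 2 times.

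The genes nearest in profile were found from the root mean square difference in 4 log2 ratios to the unstimulated array, over 8676 other genes with a signal over the floor, after any dimmer signal was set to that floor. Nearest to Fos were the activation marker Cd69 (difference 0.81), the zinc finger factor Egr2 (0.83) and Csrnp1 (0.99). Junb was nearest to Csrnp1 (0.39), the MAP kinase phosphatase gene Dusp1 (0.44) and Dusp5 (0.55), a second phosphatase of that family. For Fosl2 they were Ier3 (0.39), the growth regulator Myc (0.46) and Cldn12 (0.51), the last read on U74C from a probe set that can cross-hybridise. These differences describe 4 ratios that share 1 unstimulated array.

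Other leucine zipper factors that can pair with Fos or Jun proteins formed a second list. Of 30 listed, 26 were on the arrays and 16 were measured at 30 min of IL-3, with a median log2 ratio of 0.06, against -0.007 over all measured genes. Calls were 1 higher and 0 lower, against 0.711% and 0.343% of all genes. That 1 was Maff, a small Maf protein without a transactivation domain, at 330 with IL-3 and 94.6 without (at least 2.75-fold higher), a call lost with the floor doubled. At 2 h of IL-3, 17 were measured, with a median of 0.28 against -0.03 over all genes. Here 1 was called higher and 1 lower, against 2.45% and 1.63% of all genes. Atf4, a factor of the amino acid response, rose 2.18-fold, and Bach1, a repressor that pairs with small Maf proteins, was 2.31-fold lower. The Bach1 call was lost with the floor doubled (log2 ratio -0.61).

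With Stat5 siRNA the pairing partner Ddit3, also called CHOP, was the 1 gene of this list past 2-fold at each time, of 17 measured at 30 min and 18 at 2 h. Its signal was 330 at 30 min and 364 at 2 h in Stat5 siRNA cells, against 85.0 and 39.6 in control siRNA cells, at least 2.75-fold and 3.04-fold higher. Both calls were lost with the floor doubled (log2 ratios 0.46 and 0.60). The list's median log2 ratio was 0.08 at 30 min and 0.19 at 2 h, against 0.0008 and 0.004 over all genes. Of all genes 0.308% were called higher and 0.382% lower at 30 min, and 0.504% and 0.43% at 2 h. Between 30 min and 2 h, Cebpb was 2.26-fold higher at 2 h in Stat5 siRNA cells, and Bach1 was 2.93-fold lower at 2 h in control siRNA cells, where its log2 ratio was -0.95 with the floor doubled.

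Upstream of Fos and Jun, 28 of 35 listed kinases and factors were on the arrays, from Ras proteins to the MAP kinases and serum response factor. At 30 min of IL-3, 21 were measured and only Srf, the factor that binds CArG boxes, was past 2-fold (2.29-fold). Its 2 probe sets disagreed in size, with signals of 469 and 367 at 30 min against 128 and 259 without IL-3. The 30 min call was lost with the floor doubled (log2 ratio 0.74) and with the brightest probe set alone (0.51). At 2 h Srf was 2.79-fold higher, again the 1 of 22 measured. The list's median was 0.06 at 30 min and 0.13 at 2 h, against -0.007 and -0.03 over all genes, of which 0.711% and 2.45% were called higher. With Stat5 siRNA 0 of 20 measured genes at 30 min and 0 of 23 at 2 h passed 2-fold, with medians of -0.05 and 0.08, against 0.0008 and 0.004 over all genes. Of all genes 0.308% were called higher and 0.382% lower at 30 min, and 0.504% and 0.43% at 2 h, so the absence of a call here is not a result about the list.

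Among 15 regulators of AP-1 protein or mRNA stability on the arrays, Zfp36, which encodes an RNA-binding protein that speeds decay of transcripts with AU-rich elements, followed the course of Fos. It had signals of 290 at 30 min and 62.2 at 2 h in Stat5 siRNA cells, against 38.0 without IL-3, 406 at 30 min and 16.7 at 2 h in control siRNA cells. That was at least 3.39-fold higher at 30 min than without IL-3, the 1 of 14 measured past 2-fold, against 0.711% of all genes, and the list's median was 0.06 against -0.007. The 30 min arrays were over the floor and the others under it. Zfp36 was at least 2.42-fold lower at 2 h than at 30 min in Stat5 siRNA cells and at least 3.39-fold lower in control siRNA cells, where Zfp36l1, a relative, was at least 2.02-fold lower. These calls for Zfp36 and Zfp36l1, at 30 min too, were lost with the floor doubled. With Stat5 siRNA 0 of 14 measured genes of the list at 30 min and 0 of 13 at 2 h passed 2-fold. Over all genes 0.308% were higher and 0.382% lower at 30 min, and 0.504% and 0.43% at 2 h. At such shares the absence of a call is not a result about the list.

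Known AP-1 target genes, taken largely from other cell types, were mostly under the floor, with 14 of 33 on the arrays measured at 30 min of IL-3. Of these 2 were higher and 0 lower, with a median of 0.09, against 0.711% higher, 0.343% lower and a median of -0.007 over all genes. Cd69 had signals of 1166 at 30 min and 219 at 2 h in Stat5 siRNA cells, against 47.6 without IL-3, 781 at 30 min and 114 at 2 h in control siRNA cells, a rise of at least 6.52-fold with IL-3 at 30 min. The cytokine gene Il6 had 274 at 30 min and 54.4 without IL-3, at least 2.28-fold higher, a call lost with the floor doubled (log2 ratio 0.19). At 2 h of IL-3, 0 of 14 measured passed 2-fold, against 2.45% of all genes higher and 1.63% lower, although with the floor halved 3 were higher and 1 lower. With Stat5 siRNA 0 of 14 passed 2-fold at each time, with medians of -0.15 at 30 min and 0.04 at 2 h, against 0.0008 and 0.004 over all genes. Shares over all genes were 0.308% higher and 0.382% lower at 30 min, and 0.504% and 0.43% at 2 h, so the absence of a call is not a result about the targets. Under some alternatives 1 target, Hbegf, named here after its values were seen, was past 2-fold lower with the siRNA (log2 ratio -1.19 at 30 min with the floor halved, -0.19 as reported). At 2 h the Hbegf log2 ratio was -0.89 as reported, short of the rule. It was -1.05 with dim signals kept as measured or a floor per array design, and -1.12 from the brightest probe set alone. Between 30 min and 2 h Cd69 was 5.32-fold lower at 2 h in Stat5 siRNA cells and at least 6.52-fold lower in control siRNA cells.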

How the data were processed

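Signals were measured on Affymetrix U74A, U74B and U74C arrays, with 1 array per condition and design. The authors deposited 1 intensity per probe set on a linear scale, made with MAS5, per the submitters' processing notes. The detection and noise filters of the design text were not applied here. All value columns were used.

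The trimmed mean of every array (without 2% at each end) was made equal. As deposited it already lay between 150.04 and 150.1. The floor, 119.9, was the signal that 14553 of 36701 non-control probe sets reached on their highest array, the number the design text gives as passing its filters. A comparison counts a probe set as measured when either array reached the floor. Dimmer signals were set to the floor, so that a fold with 1 such signal is a bound ("at least"). The call is a fold of 2 or more, a rule of size and no test. Without replicates there is no p-value, and the small number of arrays limits precision.

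Genes were named from the platform annotation, which gave 1 symbol to 29131 probe sets, several to 724 and none to 6846. Genes with several measured probe sets took the median of those. Those ending in _f_at, _r_at, _i_at or _x_at, which can cross-hybridise, were used only for genes without another kind. Named are all 8 subunits with their probe sets, the siRNA targets, up to 6 genes past 2-fold per list and comparison, and for each subunit past 2-fold with IL-3 the 3 genes closest in profile. The members and lists were chosen with earlier results of these data known. The steps were tested on simulated data, with changes placed only in probe sets well above the floor. Rises from under the floor, as for Fos, were not simulated. Python 3.11.15 with pandas 2.3.3 was used. Alternatives covered scaling, the floor, the choice of probe sets and the array designs.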

Additional observations from a re-analysis of the deposited data

Results flagged for a closer look

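Of the subunits, only Fosl2, Junb and Jund had a ratio of Stat5 siRNA to control siRNA at both times. All of these changed sign, with Fosl2 at a log2 ratio of -0.46 at 30 min and 0.03 at 2 h. Junb and Jund were flagged, since their values at both times were farther from 0 than the SD between probe sets of 1 gene. Over all designs this SD was 0.21 at 30 min and 0.25 at 2 h. That SD leaves out cross-hybridising probe sets, the kind of both Junb probe sets, so it may not hold for Junb. Junb had a log2 ratio of -0.25 at 30 min and 0.39 at 2 h. Jund had 0.38 at 30 min and -0.49 at 2 h. The difference between the times was not tested, since each time had 1 array per siRNA. How many of all genes meet the same rule was not counted, so the flag is not a result particular to Junb and Jund. For Junb most of the value at both times came from the _r_at probe set (-0.43 and 0.69), while the _i_at probe set gave -0.07 and 0.09.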

How the results depend on the processing

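No member's call reversed under the 11 alternatives. Counts of members past 2-fold moved as follows. With IL-3 at 30 min over no IL-3, 3 became 5 with the floor halved and 5 with dim signals kept as measured, as Jun and Fosb joined, 4 with a floor per array design, as Jun joined, and 2 without cross-hybridising probe sets, which removes Junb. With IL-3 at 2 h, 2 became 1 with median scaling, 1 with the floor doubled and 1 without cross-hybridising probe sets, again without Junb, but 3 with the floor halved or dim signals kept as measured, as Fosl1 joined (log2 ratio at least 1.32 with the floor halved). From 30 min to 2 h in control siRNA cells, 2 lower became 5 with the floor halved and 5 with dim signals kept as measured, in each case 4 lower (Jun and Fosb joined) and 1 higher (Fosl1). It was 3 lower with median scaling (Fosl2 joined) or a floor per array design (Jun joined), and 1 without cross-hybridising probe sets. In Stat5 siRNA cells 3 lower became 2 with median scaling, with the brightest probe set alone or without cross-hybridising probe sets, each without Junb, and 2 with the floor doubled, without Jun. No alternative brought a subunit past 2-fold with Stat5 siRNA, and 7 subunits reached the floor in the values as reported. In the other lists, 39 counts over comparisons and alternatives moved by over 1.5 times, or to or from 0, and 225 did not. With the floor doubled the calls of Maff, Srf at 30 min, Zfp36, Zfp36l1, Il6, Bach1 and Ddit3 were lost. The only member ratio to change sign was that of Fosl2 with Stat5 siRNA at 2 h, at 0.03 as reported and -0.07 from the brightest probe set alone. Over all probe sets, median scaling gave 155 higher and 54 lower calls with IL-3 at 30 min, against 109 and 78, and 51 higher and 88 lower with Stat5 siRNA at 30 min, against 55 and 59. Where fold bounds rest on the floor, another floor moves them by construction. The cause of the shift with median scaling was not tested. With 1 array per condition, no array could be left out. No paired analysis was possible because each condition had 1 array per design. Signals of Fos, Fosb, Jun and Fosl1 under the floor limit what can be said of their size of change.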

Other observations

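Atf3 stayed under the floor in Stat5 siRNA cells, where Ddit3 and Atf4, which like Atf3 belong to the cellular stress response, had their highest signals. Atf4 had signals of 1018 at 30 min and 1236 at 2 h in Stat5 siRNA cells, against 376 without IL-3, 608 at 30 min and 821 at 2 h in control siRNA cells. The 3 Atf3 probe sets, all of the cross-hybridising kind, had at most 51.1 on any array.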
